A study of Mus musculus with 34 samples.

Results

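Expression of 8 lysosomal genes was followed in adipose tissue and heart of C57BL/6J mice on 3 diets. The genes were 6 cathepsins (Ctsb, Ctsd, Ctsk, Ctsl, Ctss and Ctsz), the acid lipase gene Lipa and the lysosomal membrane gene Lamp1. They were taken by symbol from the deposited tables, and all 8 had a row with counts in both tissues, among 15145 genes in the adipose table and 13238 in the heart table. One group of mice ate a high-fat, high-calorie diet (HFCD, 60% of calories from fat) that was interrupted every 4 weeks by a 5-day fasting mimicking diet, and is called HFCD+FMD. A fasting mimicking diet is a low-calorie, low-protein diet given for a few days at a time. From cycle 6 onwards each FMD was followed by a 2-day spell on control diet. The second group ate HFCD without interruption, and the last ate a control diet with 10% of calories from fat. Tissue was taken 4 days after the 11th cycle, and the mice were 20 to 22 months old. The adipose libraries numbered 6 for HFCD+FMD, 4 for HFCD and 3 for control, and the heart libraries numbered 4, 5 and 5 in the same order. The labels name the adipose tissue without its depot. They do not tie a library to an animal, and the design text speaks of 18 mice, so p-values measure the spread between libraries.

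Lysosomes are acidic organelles that break down proteins, lipids and sugars delivered by endocytosis, phagocytosis and autophagy. Cathepsins are their main proteases, and most are made by many cell types, while cathepsin S and cathepsin K are best known from antigen-presenting cells and from osteoclasts and macrophages. Obese adipose tissue is known to gather macrophages that take up lipid and hold many lysosomes, and acid lipase frees cholesterol and fatty acids from the lipids that reach the organelle. Many lysosomal genes are targets of the transcription factor TFEB, which binds the E-box CACGTG and longer forms of it.

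The 8 genes lie on 7 mouse chromosomes (GRCm38). Ctsd, the aspartic protease cathepsin D, lies at chr7:142375911-142388038 on the minus strand. The cysteine proteases are Ctsb at chr14:63122462-63145923 (plus), Ctsl at chr13:64359337-64370890 (minus), Ctsz at chr2:174427493-174439039 (minus), Ctsk at chr3:95499256-95509362 (plus) and Ctss at chr3:95526786-95556403 (plus). Ctsk and Ctss are neighbours, with 17423 bases between them. Lipa lies at chr19:34492318-34527474 (minus) and Lamp1, which encodes an abundant glycoprotein of the lysosomal membrane, at chr8:13159161-13175338 (plus). RefSeq promoters (GRCm38.p6) were found for 7 of the 8 genes, without Ctsb. In the 250 bases before the start, the E-box CACGTG occurred 4 times in Lamp1, 2 times in Ctsd and 1 time in Ctsl, and it was not in the windows of Ctsk, Ctss, Ctsz and Lipa. Among 32851 RefSeq promoters, 6.02% held it in the same window. The longer form TCACGTGA, which contains the E-box, was in the Ctsd window, in 1 of 7 members and 0.785% of all promoters. That form with G before it and C after it was in 0 of 7 members and 0.240% of all promoters. The motifs read the same on either strand. The windows of Lamp1 (chr8:13158911-13159160, plus), Ctsd (chr7:142387828-142388077, minus), Ctss (chr3:95526536-95526785, plus) and Ctsk (chr3:95498960-95499209, plus) are printed 5′ to 3′ on the strand of the gene, with each E-box in capitals. Lamp1 and Ctsd passed the test in no adipose comparison, and Ctss and Ctsk rose most on HFCD. Ctsl, with an E-box, and Ctsz and Lipa, without one, were also called higher on HFCD in adipose tissue. A link between E-boxes and the diet differences was not tested.
Lamp1: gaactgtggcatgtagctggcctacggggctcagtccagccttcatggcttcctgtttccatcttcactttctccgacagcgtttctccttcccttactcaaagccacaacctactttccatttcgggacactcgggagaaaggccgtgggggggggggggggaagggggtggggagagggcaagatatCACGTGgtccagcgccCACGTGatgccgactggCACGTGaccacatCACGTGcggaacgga
Ctsd: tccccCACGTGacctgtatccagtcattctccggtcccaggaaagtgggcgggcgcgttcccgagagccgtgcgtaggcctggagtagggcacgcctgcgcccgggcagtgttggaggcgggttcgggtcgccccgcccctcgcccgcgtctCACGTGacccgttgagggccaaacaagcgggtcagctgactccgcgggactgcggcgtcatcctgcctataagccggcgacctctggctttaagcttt
Ctss: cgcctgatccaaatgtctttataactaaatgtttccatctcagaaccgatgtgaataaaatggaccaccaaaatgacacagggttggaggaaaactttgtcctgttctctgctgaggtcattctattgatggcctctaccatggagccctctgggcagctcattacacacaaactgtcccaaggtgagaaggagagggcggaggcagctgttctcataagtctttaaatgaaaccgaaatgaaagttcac
Ctsk: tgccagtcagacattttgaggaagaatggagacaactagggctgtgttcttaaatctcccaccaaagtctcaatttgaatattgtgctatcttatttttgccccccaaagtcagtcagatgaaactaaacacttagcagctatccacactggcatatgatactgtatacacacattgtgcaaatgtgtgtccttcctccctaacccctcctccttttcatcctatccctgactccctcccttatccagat
Counted from the start, the Lamp1 E-boxes begin 61, 45, 28 and 15 bases upstream, and those of Ctsd 245 and 98 bases upstream. The E-box of the Ctsl window begins 236 bases upstream. Starts are those of the RefSeq promoters. By the gene spans given above, the whole Ctsl window (chr13:64370521-64370770, minus) and part of the Ctsd window lie inside the gene. A match describes the letters and is not a measured binding site.

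Levels are given as CPM, counts scaled to a common library size by TMM, and differences as log2 fold changes ± SE from edgeR's quasi-likelihood test, with p-values adjusted over all genes of the tissue. A gene was called changed at an adjusted p below 0.05. Total counts ran between 27868228 and 40831656 per library in adipose HFCD+FMD, between 23523322 and 36688935 in HFCD and between 15604982 and 28495331 in control, and between 16848195 and 47859170 in heart. Mitochondrially encoded genes took 2.20% to 7.47% of counts in adipose HFCD+FMD, 2.17% to 6.08% in HFCD and 12.6% to 29.3% in control, so the diets differed in this share. In heart they took 29.5% to 62.0%, 36.4% to 71.5% and 21.8% to 32.6% in the same order of diets, and 4 heart libraries exceeded 50% (HFCD+FMD replicates 3 and 5, HFCD replicates 3 and 5). The deposited heart values fell into 3 library sets, A (control 2, 3 and 5 with HFCD 1 to 4), B (control 4 and 6 with HFCD+FMD 1) and C (HFCD+FMD 2, 3 and 5 with HFCD 5), and the heart fit allowed for them. The tissue labels were checked against adipocyte and cardiomyocyte markers, which summed to 18887 to 49500 CPM over 8 adipocyte genes in adipose libraries and to 31821 to 60673 CPM over 9 cardiomyocyte genes in heart libraries. Cardiomyocyte genes reached 140 CPM in adipose HFCD+FMD replicate 6, 113 in HFCD replicate 1 and 87.9 in control replicate 1, against a lowest sum of 3.11 CPM among adipose libraries. In heart libraries 7 adipocyte genes summed to 347 to 911 CPM, and Fabp4 alone averaged 576 CPM on HFCD. Heart HFCD replicate 5 had the highest of these sums and the lowest cardiomyocyte sum.

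On HFCD without interruption, 5 of the 8 genes rose in adipose tissue against control diet and none fell. The rise was largest for Ctsk and Ctss, at 9.28-fold and 8.25-fold, intermediate for Lipa at 4.19-fold, and near a doubling for Ctsz at 2.07-fold and Ctsl at 1.97-fold. Ctsb, Lamp1 and Ctsd did not pass the test. Of all 15112 adipose genes tested, 15.7% were called higher, 14.2% lower and 30.0% in either direction. The median log2 fold change over the 8 genes was 1.02, against -0.0014 over all genes.

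Cathepsin K, a collagen-degrading protease, was read from Ctsk at 86.8, 84.3, 99.0 and 99.4 CPM in the HFCD libraries, against 5.81, 8.45 and 15.1 CPM in control. Every HFCD library was above every control library, and the lowest HFCD value was more than 5 times the highest control value. The fitted difference was 3.21 ± 0.63 on the log2 scale (adjusted p = 0.0040). Ctss, whose product trims the invariant chain for antigen presentation, had 432, 606, 529 and 735 CPM on HFCD, against 30.4, 48.7 and 129 CPM on control diet. The groups did not overlap, control replicate 5 was the highest of its group for both genes, and the fitted difference was 3.04 ± 0.64 (adjusted p = 0.0055). Both calls held in each of the 13 fits that left out 1 library.

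Lipa, which encodes the lysosomal lipase for cholesteryl esters and triglycerides, had 380.4, 448, 496 and 716 CPM on HFCD, against 114, 114 and 137 CPM on control diet. The groups were apart and the difference was 2.07 ± 0.52 (adjusted p = 0.0115), although it missed the threshold without control replicate 1 (adjusted p = 0.0504). Ctsz, the carboxypeptidase cathepsin Z, had 314, 359, 308 and 357 CPM on HFCD, against 163, 138 and 183 CPM on control diet. It rose by 1.05 ± 0.29 (adjusted p = 0.0162), with adjusted p of 0.0568 without control replicate 1 and 0.0666 without control replicate 3. Ctsl, a broad-range endopeptidase, had 911, 1180.3, 909.7 and 944 CPM on HFCD, against 453, 526.4 and 519.7 CPM on control diet. Its groups were also apart, at 0.98 ± 0.31 (adjusted p = 0.0310), but the adjusted p lay between 0.0581 and 0.107 when control replicate 1, 3 or 5 or HFCD replicate 2 was removed. Without control replicate 1, 2 of the 8 genes were called, and without control replicate 3, 3 were.

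The product of Ctsb is an endopeptidase that also removes dipeptides from the carboxyl end of proteins. Ctsb had 3526, 4073, 4505 and 5571 CPM on HFCD, against 3423, 2933 and 2794 CPM on control diet. All HFCD values were above all control values, but the lowest HFCD library was close to the highest control library, and the difference of 0.53 ± 0.23 had an adjusted p of 0.0971. Lamp1 had 872, 963, 1148 and 1323 CPM on HFCD, against 879, 919.6 and 1049 CPM on control diet. Its groups overlapped, with a difference of 0.18 ± 0.16 (adjusted p = 0.411) and an interval of -0.13 to 0.50. Ctsd had 1016, 1307, 1332 and 1547 CPM on HFCD, against 1619, 1169 and 1239 CPM on control diet. The highest of these 7 values was a control library, and the difference of -0.05 ± 0.31 (adjusted p = 0.922) had an interval of -0.65 to 0.56. In total 6 of 8 genes had every HFCD library above every control library, a pattern found in 20.6% of all adipose genes.

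These sizes are relative to TMM scaling. When libraries were scaled to their total counts alone, an alternative chosen after seeing the data, the median of all genes moved to 0.44 in this comparison, and 7 of 8 members were called, with Ctsb at 0.99 and Lamp1 at 0.61 added. Of all genes, 6205 were then called higher and 672 lower, against 2379 higher and 2153 lower with TMM. Ctsd then stood at 0.42, near the median of all genes, which had moved by about as much. For HFCD+FMD against HFCD the split was 9 higher and 16 lower by total counts, against 4 higher and 27 lower with TMM, and 0 of 8 members were called either way.

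**Figure D1:**
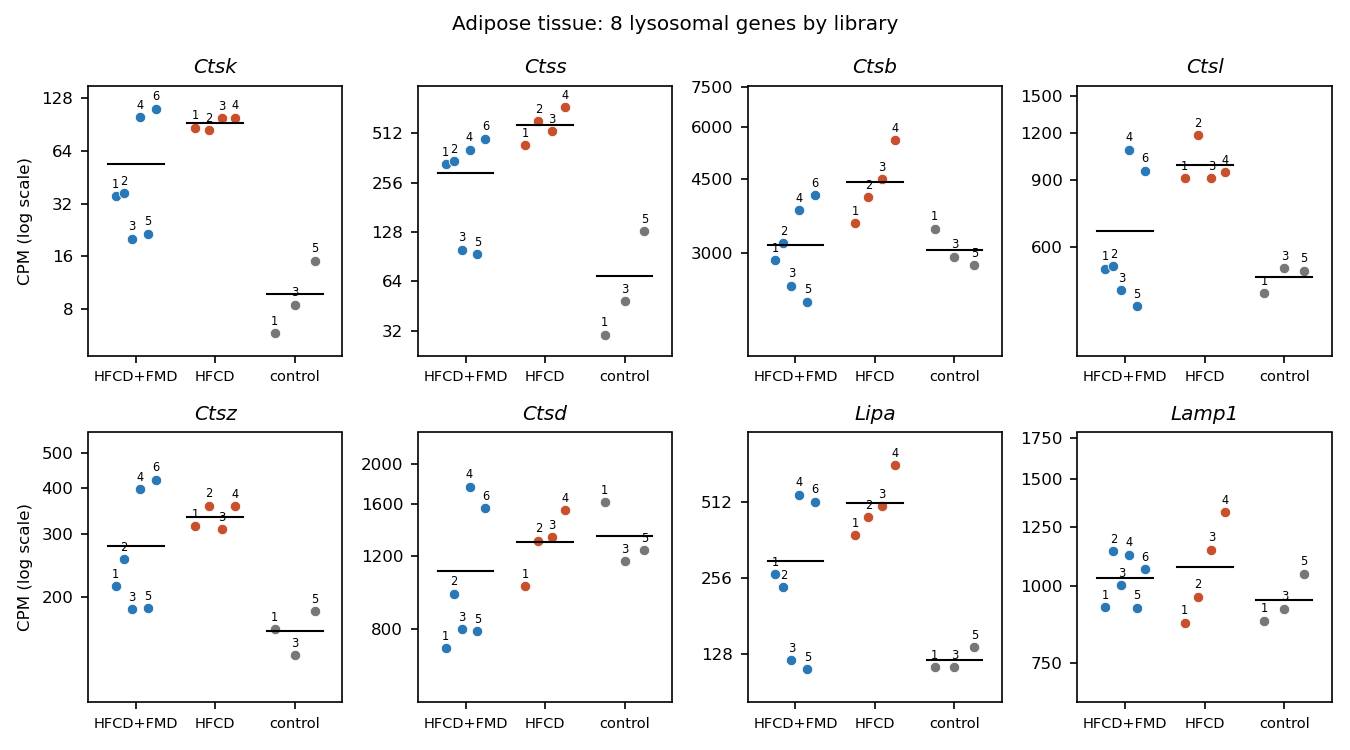
CPM (log axis) of the 8 genes in each adipose library, in columns for HFCD+FMD, HFCD and control, with points numbered by replicate and a bar at the mean of each diet. The 4 HFCD libraries of Ctsk lie between 84.3 and 99.4 CPM and the 3 control libraries between 5.81 and 15.1 CPM, while the 6 HFCD+FMD libraries span 20.2 to 112 CPM.

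With FMD cycles added to HFCD, none of the 8 genes differed from HFCD alone in adipose tissue at an adjusted p below 0.05. The fitted differences were negative for all 8, with a median of -0.54 against 0.011 over all genes. Ctss averaged 292 ± 159 CPM in HFCD+FMD and 575 ± 128 CPM in HFCD (SD, n = 6 and 4), a difference of -0.98 ± 0.48 (adjusted p = 0.468). Calls were few across the tissue: edgeR called 0.205% of genes in either direction, 31 of 15112, DESeq2 called 302 and limma voom called 60. At an unadjusted p below 0.05 there were 1693 genes, and 2 of the 8 members, Ctsb and Ctsl, were among them. DESeq2 and limma voom also called 0 of the 8.

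The intervals were wide for the genes with the largest differences. For Ctss, the interval ran from -1.91 to -0.04, while its unadjusted p was 0.0608. Ctsk differed by -0.77 ± 0.46 (interval -1.67 to 0.13, adjusted p = 0.551) and Lipa by -0.77 ± 0.40 (interval -1.56 to 0.03, adjusted p = 0.502). The fit gave Ctsl -0.58 ± 0.25 (interval -1.07 to -0.08, adjusted p = 0.418) and Ctsb -0.50 ± 0.19 (interval -0.88 to -0.12, adjusted p = 0.359). For Ctsz, Ctsd and Lamp1 the differences were -0.27 ± 0.23, -0.24 ± 0.26 and -0.06 ± 0.14, each with an interval that included 0. Lamp1 had the narrowest interval, -0.33 to 0.20.

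The 6 HFCD+FMD libraries were wide apart from each other for Ctsk, Ctss and Lipa. Ctsk had 35.3, 36.6, 20.2, 99.9, 21.6 and 112 CPM in replicates 1 to 6. Replicates 4 and 6 were above every HFCD library, whereas the other 4 lay between the HFCD and the control ranges. Lipa, at 267, 237, 122, 549, 112 and 514 CPM in the same order, had replicates 4 and 6 within the HFCD range and replicates 3 and 5 at the level of control libraries. Across the 8 genes, replicate 4 was among the 2 highest HFCD+FMD libraries for 8 genes and replicate 6 for 7, while replicate 5 was among the 2 lowest for 8 genes and replicate 3 for 6. The highest HFCD+FMD value was 5.53 times the lowest for Ctsk, 5.05 times for Ctss, 4.92 times for Lipa and 1.24 times for Lamp1. In the 4 HFCD libraries the same ratio lay between 1.16 and 1.88 for all 8 genes, and in the 3 control libraries it was 4.26 for Ctss and 1.20 for Lipa.

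Against control diet, 2 of the 8 genes rose in adipose tissue with HFCD+FMD, Ctsk and Ctss, and none fell. The 3 adipose comparisons share libraries, so their values are not independent. Of all adipose genes 10.5% were called higher, 9.25% lower and 19.7% in either direction, and the median over the members was 0.59 against 0.0029 over all genes. Ctsk averaged 54.2 ± 40.7 CPM in HFCD+FMD and 9.79 ± 4.79 CPM in control (SD, n = 6 and 3), with no overlap, and rose 5.44-fold (2.44 ± 0.59 on the log2 scale, adjusted p = 0.0161). Ctss rose 4.19-fold (2.07 ± 0.59, adjusted p = 0.0294), with a range of 93.8 to 474 CPM (median 338) in HFCD+FMD against 30.4 to 129 CPM in control, and the groups overlapped in HFCD+FMD replicates 3 and 5. Neither gene passed without control replicate 1 (adjusted p = 0.0855 for Ctsk and 0.130 for Ctss) or control replicate 3 (0.0660 for Ctsk and 0.109 for Ctss), and Ctss did not pass without HFCD+FMD replicate 6 (0.0523).

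Ctsz and Lipa were higher on average but did not pass. Ctsz averaged 277 ± 107 CPM in HFCD+FMD and 161 ± 22.7 CPM in control, with every HFCD+FMD library above every control library, and differed by 0.78 ± 0.27 (adjusted p = 0.0560). Such full separation upwards was found for 2 of 8 members, Ctsk and Ctsz, and for 10.5% of all genes. Lipa had 112 to 549 CPM (median 252) in HFCD+FMD and averaged 122 CPM in control, a difference of 1.30 ± 0.48 (adjusted p = 0.0702). Without HFCD+FMD replicate 3 or 5, both passed, with adjusted p between 0.0316 and 0.0359. Ctsl differed by 0.41 ± 0.29, Ctsb by 0.03 ± 0.21, Ctsd by -0.28 ± 0.28 and Lamp1 by 0.12 ± 0.15, with adjusted p between 0.324 and 0.925. Scaled to total counts, the median of all genes moved to 0.47 and 6 of 8 members were called. All genes then split into 6892 higher and 354 lower, against 1580 higher and 1398 lower with TMM. Ctsd then stood at 0.22, still below that median.

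**Figure D2:**
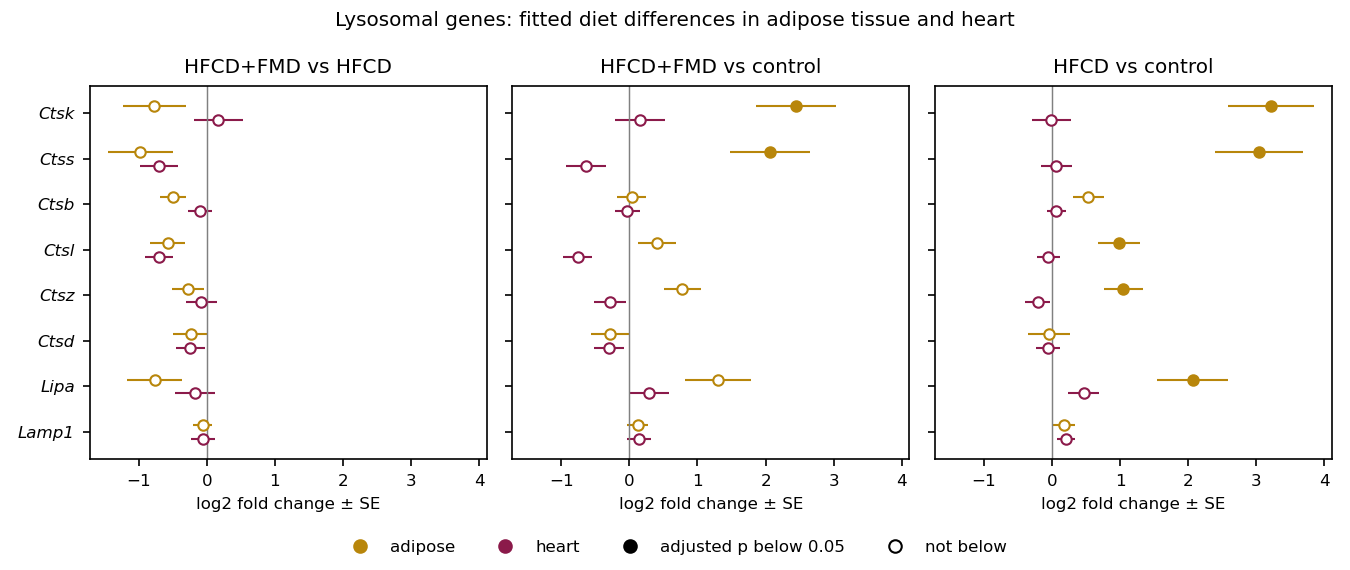
log2 fold change ± SE of the 8 genes for HFCD+FMD against HFCD, HFCD+FMD against control and HFCD against control, in adipose tissue and heart, with filled points for an adjusted p below 0.05. Filled points occur for adipose tissue only: 0, 2 and 5 genes in the 3 comparisons in that order.

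Macrophage markers moved with the same diets. Over 12 macrophage genes, the summed level was 1174 to 3723 CPM (median 2406) in adipose HFCD+FMD, 2440.1 to 4843 CPM (median 3452) in HFCD and 360.3 to 1544 CPM (median 746) in control. For HFCD against control, 9 of the 12 rose and none fell, with a median of 1.81, among them Mpeg1 (571 CPM on HFCD and 51.5 on control diet), Adgre1 (253 and 30.3 CPM) and Tyrobp (120 and 19.4 CPM). For HFCD+FMD against HFCD, 0 of 12 passed, with a median of -0.64, and for HFCD+FMD against control 6 rose and none fell. Of 9 genes known from lipid-associated macrophages, 7 rose on HFCD against control, including Gpnmb (902 and 24.1 CPM), Itgax (111 and 4.62 CPM) and Trem2 (98.8 and 11.9 CPM). Lpl and Fabp5, which adipocytes also express, had negative fold changes that did not pass. The sum over all 9, in which the most abundant genes weigh most, did not follow the 7 that rose. It was 12364 to 23384 CPM in HFCD+FMD, 13177 to 18828 CPM in HFCD and 15458 to 25386 CPM in control. Cd68, Gpnmb and Atp6v0d2 of these lists are lysosomal genes as well. In bulk tissue, more cells of a type and more RNA per cell cannot be told apart, and the part that cell composition has in the results was not tested.

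Set against the macrophage sum, the 8 genes behaved differently from each other. Per 100 CPM of macrophage markers, Ctss had 7.99 to 14.2 CPM in HFCD+FMD (median 12.96), 14.5 to 18.6 CPM in HFCD (median 16.4) and 6.52 to 8.44 CPM in control (median 8.39). The HFCD libraries were above all control libraries by this measure too. For Ctsk the ratio was 1.49 to 3.23 (median 1.75) in HFCD+FMD, 2.05 to 3.56 (median 2.65) in HFCD and 0.978 to 1.61 (median 1.13) in control, and it also separated HFCD from control. Lipa had overlapping ratios, with medians of 10.6, 14.3 and 15.3 CPM for HFCD+FMD, HFCD and control. Lamp1, which did not pass the test, had ratios of 28.6 to 82.9 in HFCD+FMD, 27.3 to 35.7 in HFCD and 67.9 to 244 in control. Ctsb and Ctsd were also lower by this measure on HFCD, at 115 to 144 and 31.9 to 41.6. Their control ratios were 181 to 950 and 80.2 to 449. Ctsl and Ctsz, which were called higher on HFCD, had overlapping ratios with lower medians on HFCD (30.6 and 9.74) than on control diet (70.5 and 18.5). HFCD+FMD replicates 3 and 5, lowest for most members, also had the lowest macrophage sums of their diet (1213 and 1174 CPM), and replicates 4 and 6 the highest (3091 and 3723 CPM).

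**Figure D3:**
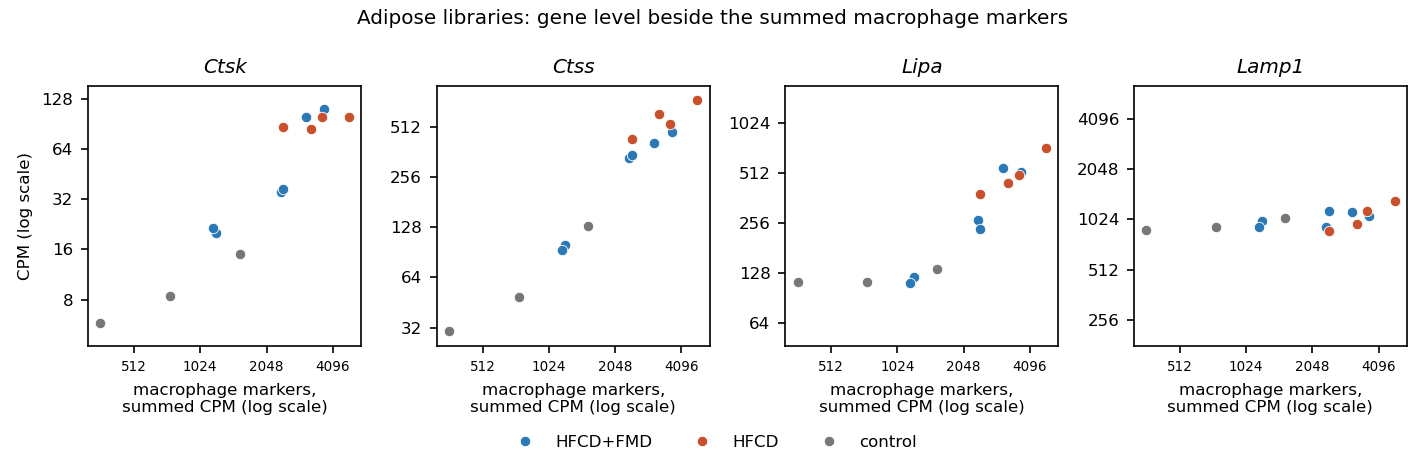
CPM of Ctsk, Ctss, Lipa and Lamp1 in each adipose library against the summed CPM of 12 macrophage markers, by diet. The 3 control libraries, with sums of 360.3 to 1544 CPM, lie low on both axes for Ctsk and Ctss, the 4 HFCD libraries, with sums of 2440.1 to 4843 CPM, lie high, and Lamp1 stays between 872 and 1323 CPM.

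Other cell types moved as well. Of 8 adipocyte genes, 4 fell (Plin1, Fabp4, Cfd and Pparg) and the leptin gene Lep rose on HFCD against control, and their sum was 18887 to 25083 CPM in HFCD+FMD, 22614 to 27003 CPM in HFCD and 29312 to 49500 CPM in control. Of 6 mesothelial genes, 5 fell on HFCD against control (Upk3b, Wt1, Krt19, Lrrn4 and Upk1b, median of the list -2.10), and of 9 fibroblast and progenitor genes 4 rose, the collagen genes Col1a1, Col1a2 and Col3a1 and Lum. Osteoclast-type genes were tested because Ctsk marks osteoclasts: Dcstamp, Tnfrsf11a and Ocstamp, the last at under 1 CPM on every diet, rose on HFCD against control, Mmp9 fell, and Acp5, at 203 CPM on HFCD and 177 CPM on control diet, did not pass. Calcr, the calcitonin receptor of osteoclasts, had no row in the adipose table or stayed under 1 CPM, as did the neutrophil genes Ly6g, Cxcr2 and Retnlg. B cell genes did not rise with the members, with 1 of 5, Cd79a, lower on HFCD. Of 7 dendritic cell genes 1 rose on HFCD against control and 0 fell. Their sums overlapped, at 19.3 to 42.3 CPM in HFCD+FMD, 34.8 to 48.4 CPM in HFCD and 37.8 to 59.7 CPM in control.

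The wider lysosome was read from 8 lists that hold 158 genes other than the members, of which 147 were tested in adipose tissue. On HFCD against control 55 of the 147 rose and 6 fell, with a median of 0.31. For HFCD+FMD against HFCD none of the 147 passed, with a median of -0.20. For HFCD+FMD against control 26 rose and 5 fell, with a median of 0.19. The shares of genes called across the tissue are given above for each comparison.

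Among the enzymes, glycosidases and sulfatases moved most often, with 14 of 25 higher on HFCD and none lower (median 0.60). Man2b1, lysosomal alpha-mannosidase, averaged 330 CPM on HFCD and 108 CPM on control diet and rose by 1.61 ± 0.24 (adjusted p = 0.0013), and Manba and Naglu rose by 1.45 and 0.82. Gba2 in this list encodes a glucosidase outside the lysosome. Of 19 lipid and other hydrolases and their cofactors 8 rose, among them Pld3 by 2.02, the acid nuclease gene Dnase2a by 1.72, the phospholipase gene Pla2g15 by 1.43 and the progranulin gene Grn by 1.29. Of 14 other peptidases 4 rose: Lgmn, the legumain that processes cathepsins, by 2.43 ± 0.60 (489 CPM on HFCD and 90.3 CPM on control diet), Prcp by 1.23, Ctsa by 0.99 and Ctsf by 0.62. Of 3 cathepsin inhibitors tested, 2 rose. Cst3, cystatin C, averaged 554 CPM on HFCD and 386 CPM on control diet (0.52 ± 0.12, adjusted p = 0.0085), and Cstb, stefin B, 99.9 and 51.0 CPM (0.97 ± 0.29, adjusted p = 0.0255). Cst7, a cathepsin inhibitor made in immune cells, averaged 1.28 and 0.774 CPM and did not pass.

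Of 26 membrane proteins 12 rose and 1 fell, with Tpcn2, Slc15a3, Laptm5 and Ostm1 higher by 2.21, 2.98, 2.09 and 0.84. Of 22 subunits of the proton pump that acidifies the lysosome 5 rose and 1 fell, and the median was 0.017. Atp6v0d2, a subunit made in macrophages and osteoclasts, averaged 195 CPM on HFCD and 4.72 CPM on control diet and rose by 5.30 ± 1.15 (adjusted p = 0.0060), Tcirg1 rose by 2.04 and Atp6v1b2 by 1.29, and Atp6v1d fell by 0.55. Of 19 genes that sort enzymes to the lysosome, 4 rose, including the mannose 6-phosphate receptor gene Igf2r by 1.09, and 2 fell. Of 19 regulators 6 rose and 2 fell. Tfeb averaged 18.1 CPM on HFCD and 6.89 CPM on control diet (1.39 ± 0.22, adjusted p = 0.0015), Mitf rose by 0.92 and Fnip2 by 1.74. The 6 lysosomal genes that fell were Sidt2, Atp6v1d, Sort1, Ap3m1, Rragb and Lamtor2, by 0.53, 0.55, 0.52, 0.32, 1.30 and 0.48.

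With HFCD+FMD against HFCD the median was below 0 in each of the 8 lists, between -0.31 and -0.03. The smallest adjusted p among the genes named for this comparison was 0.116, for the glycosidase gene Fuca1 (85.8 CPM in HFCD+FMD and 119.6 CPM in HFCD, -0.48 ± 0.11). For Fuca1 every HFCD+FMD library was below every HFCD library, which 1.95% of all genes showed. Against control, HFCD+FMD left Tfeb higher by 1.21 ± 0.21 (adjusted p = 0.0039), Man2b1 by 0.95 and Atp6v0d2 by 3.99, while the 5 that fell were Cpq, Npc2, Atp6v1d, Ap3m1 and Rragb, by 0.58, 0.48, 0.52, 0.26 and 1.12.

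**Figure D4:**
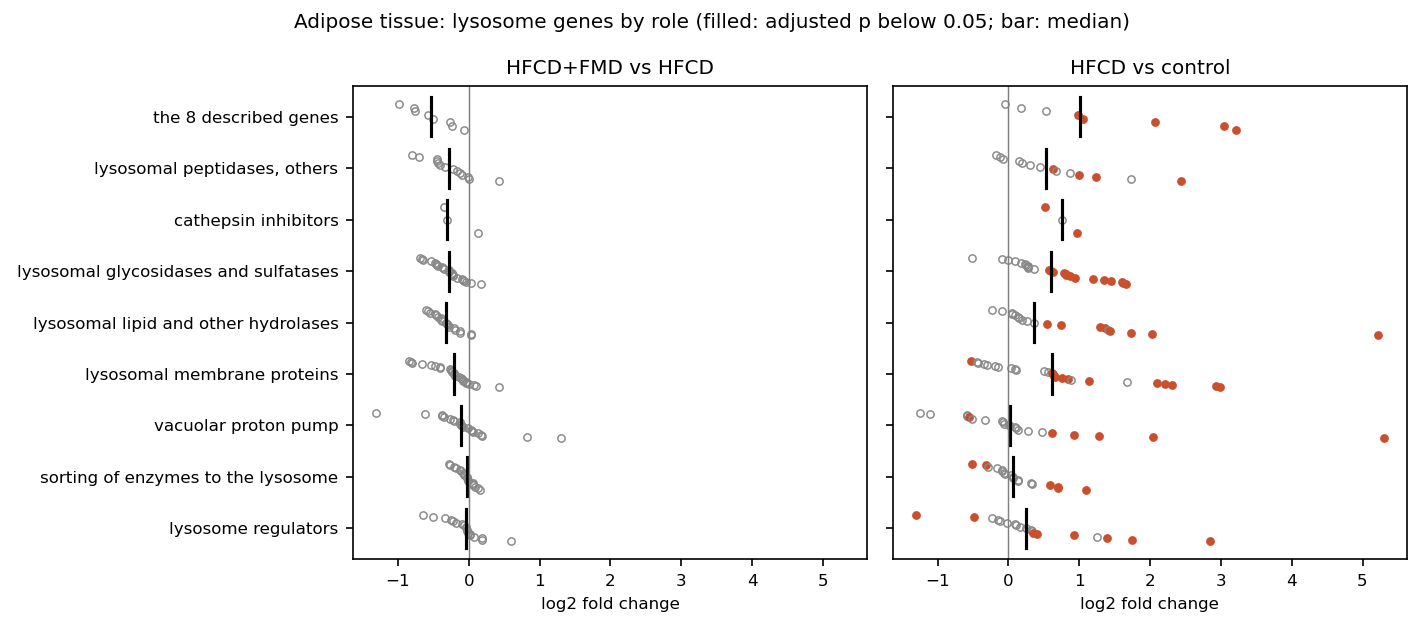
log2 fold changes in adipose tissue of the 8 members and of the other lysosomal genes by list, for HFCD+FMD against HFCD and for HFCD against control, with filled points for an adjusted p below 0.05 and a bar at the median of each list. For HFCD against control the list medians run from 0.017 for the proton pump to 0.76 for the 3 inhibitors, with 1.02 for the members, and for HFCD+FMD against HFCD no point is filled.

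In heart none of the 8 genes was called in any of the 3 comparisons. The tissue as a whole had few calls there by edgeR: 0.106% of 13230 genes for HFCD+FMD against HFCD, 0.0227% for HFCD+FMD against control and 0.0% for HFCD against control, or 14, 3 and 0 genes. DESeq2 called 279, 145 and 61 genes, and at an unadjusted p below 0.05 there were 1454, 1254 and 1687 genes and 2, 2 and 0 of the members. The members' medians were -0.14, -0.16 and 0.02 in that order. Within set A, HFCD against control also gave 0 of 8 members called. Set C holds 1 HFCD library and set B 1 HFCD+FMD library. Within a set the other comparisons thus have a diet with a single library, and the 0 calls there carry no weight. In the reported fit too, HFCD+FMD is tied to the other diets only by HFCD+FMD replicate 1 in set B and HFCD replicate 5 in set C. Its heart values against HFCD and control rest on these libraries, so the lack of calls there is weak evidence. No lysosomal gene outside the members passed in heart, 0 of 140 in each comparison.

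Cardiac Ctsk was low, at 4.39, 3.43, 2.46 and 2.48 CPM in HFCD+FMD, 3.54, 2.02, 3.25, 2.06 and 3.46 CPM in HFCD and 1.94, 3.20, 2.95, 4.32 and 2.40 CPM in control. The 3 diets overlapped fully. Ctss had 17.1, 11.9, 13.2 and 19.1 CPM in HFCD+FMD, 14.3, 11.2, 14.997, 11.7 and 33.2 CPM in HFCD and 13.8, 11.5, 20.6, 18.5 and 15.4 CPM in control, where HFCD replicate 5 stood above all other libraries. Ctsl had 99.3, 88.8, 88.0 and 117 CPM in HFCD+FMD, 92.0, 109.9, 115, 99.1 and 209 CPM in HFCD and 138, 113, 125, 115 and 122 CPM in control. HFCD replicate 5 was again the highest, and 3 of 4 HFCD+FMD libraries were below every control library. This library was the only one from a mouse of 22 months, had the highest macrophage sum of the heart libraries at 363 CPM, against 141 to 256 CPM in the other 13, and is 1 of the 4 with over 50% mitochondrial counts.

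For Ctsl the fit that allowed for the library sets gave -0.71 ± 0.20 for HFCD+FMD against HFCD (adjusted p = 0.167) and -0.76 ± 0.21 against control (adjusted p = 0.255). The value depended on single libraries. Without HFCD+FMD replicate 1 it was -1.09 against HFCD (adjusted p = 0.0196) and -1.32 against control (adjusted p = 0.0293). In that fit HFCD replicate 5 is the only library that shares a set with HFCD+FMD, so both values rest on it, with its 209 CPM, and it is assumed to vary like the others. Without HFCD replicate 5 the difference was -0.08 against HFCD. Set C then holds HFCD+FMD libraries only, so with the set term this value rests on HFCD+FMD replicate 1. With all libraries but no set term the Ctsl difference was -0.35. Within set C alone, where HFCD replicate 5 is the only HFCD library, it was -1.08. Ctss gave -0.70 ± 0.28 against HFCD (adjusted p = 0.347) and -0.64 ± 0.29 against control (adjusted p = 0.518). Its mean CPM differed little, at 15.3 in HFCD+FMD, 17.1 in HFCD and 15.9 in control, and HFCD replicate 5 held 33.2 CPM. When each library was left out in turn, Ctss ran from -1.17 to 0.094 against HFCD and from -1.34 to -0.083 against control. The fits without HFCD+FMD replicate 1 or HFCD replicate 5 have the limits given above for Ctsl.

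Lipa and Lamp1 were the 2 members with every HFCD+FMD heart library above every control library, a pattern of 4.76% of heart genes. Lipa had 37.7, 39.4, 53.4 and 65.4 CPM in HFCD+FMD, 31.98, 40.8, 69.7, 32.4 and 55.6 CPM in HFCD and 32.3, 28.8, 33.4, 30.6 and 33.5 CPM in control. Control libraries spread little, and the highest values of both other diets came from the 4 libraries with over 50% mitochondrial counts. Those 4 held 53.4 to 69.7 CPM of Lipa, against 28.8 to 40.8 CPM in the other 10 libraries, and they were also the 4 highest of 14 for Lamp1 (490.2 to 531 CPM, against 357 to 417 CPM) and Ctsb (452 to 569.7 CPM, against 348 to 448 CPM). Allowing for the sets, Lipa differed by 0.29 ± 0.30 for HFCD+FMD against control (adjusted p = 0.791) and by 0.47 ± 0.23 for HFCD against control (adjusted p = 0.402), and Lamp1 by 0.15 ± 0.18 (adjusted p = 0.818) and 0.20 ± 0.14 (adjusted p = 0.485). Without these 4 libraries, an alternative chosen after seeing the data, HFCD against control gave 0 of 8 members called and 0 of 13126 genes. HFCD+FMD replicate 2 is then alone in set C. With the set term, both HFCD+FMD comparisons rest on replicate 1 of that diet, so they cannot decide. The part of the mitochondrial share in these values was not tested.

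Cardiac Ctsb averaged 480.0 ± 50.4 CPM in HFCD+FMD, 427 ± 87.2 CPM in HFCD and 396 ± 46.7 CPM in control (SD, n = 4, 5 and 5). Ctsd averaged 386 ± 31.5, 427 ± 85.6 and 434 ± 81.8 CPM in the same order, and Ctsz 18.0 ± 1.37, 19.2 ± 2.94 and 21.1 ± 5.70 CPM. Each of the 3 genes overlapped between the diets, with adjusted p between 0.582 and 0.969.

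**Figure D5:**
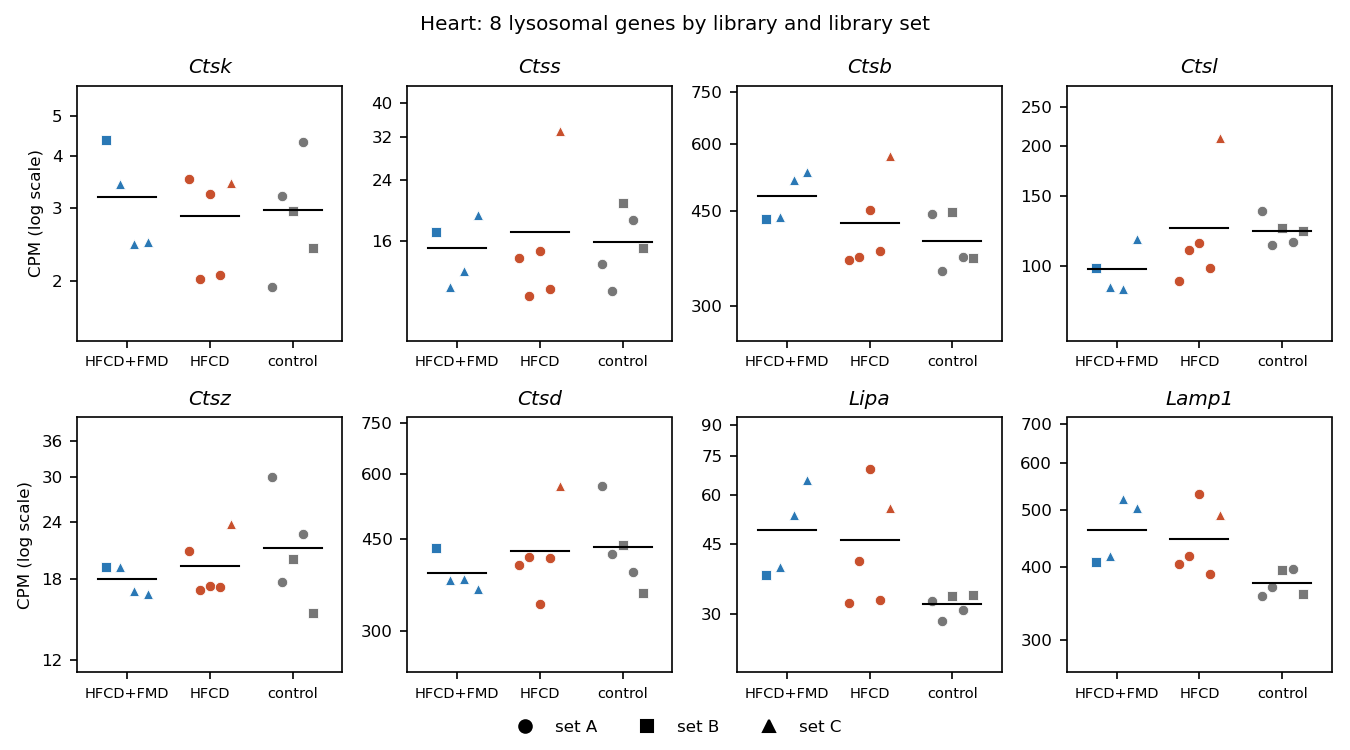
CPM (log axis) of the 8 genes in each heart library, in columns for HFCD+FMD, HFCD and control, with marker shape for the library set and a bar at the mean of each diet. HFCD replicate 5 is the highest library for Ctsl (209 CPM) and Ctss (33.2 CPM), and Lipa reaches 65.4 CPM in HFCD+FMD and 69.7 CPM in HFCD, against 33.5 CPM in control.

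Whether the HFCD response differed between tissues was tested in a joint fit. The rise on HFCD against control was larger in adipose tissue than in heart for 4 of the 8 genes, with 11.4% of 12606 genes called in that direction and 22.0% in either. The difference of the log2 fold changes was 3.30 ± 0.63 for Ctsk (adjusted p = 0.0011), 2.96 ± 0.65 for Ctss (adjusted p = 0.0032), 1.55 ± 0.53 for Lipa (adjusted p = 0.0369) and 1.20 ± 0.33 for Ctsz (adjusted p = 0.0119). Ctsl gave 0.97 ± 0.36 (adjusted p = 0.0544), Ctsb 0.44 ± 0.26, and Ctsd and Lamp1 0.00042 ± 0.34 and -0.05 ± 0.19. Lipa lost its call with heart set A alone (1.59, adjusted p = 0.0844) and in 8 of 27 fits that left out 1 library, at adjusted p between 0.0506 and 0.0853. Those libraries were adipose control 1 and 3, adipose HFCD 2 and 4, heart control 4 and heart HFCD 1, 2 and 4. Under total-count scaling the median of all genes moved to 0.95, and 7 of 8 members were called, Lamp1 among them at 0.91. All genes then split into 6151 higher and 138 lower, against 1440 higher and 1338 lower with TMM. For HFCD+FMD against HFCD, 0 of 8 genes differed between the tissues (0.0159% of all genes), with the 8 differences between -0.95 and -0.12.

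Levels between genes are compared per kilobase of exon, by the union of exons. This length was 6780 bases for Lipa and 6051 for Ctsb, against 3895 and 4743 bases in their longest transcripts. The order of near genes and the overlaps therefore hold for this choice of length only. In adipose tissue on HFCD the order was Ctsb (730.3 CPM per kb), Ctsd (553), Ctss (424), Lamp1 (402), Ctsz (232), Ctsl (152), Lipa (75.2) and Ctsk (61.1). Ctsb, Ctsd, Ctss and Lamp1 each overlapped with the next of them within 1 SD, as did Lipa and Ctsk, and the other neighbours were apart. On HFCD+FMD the order was Ctsb (516), Ctsd (469), Lamp1 (386), Ctss (215), Ctsz (192), Ctsl (102), Lipa (44.3) and Ctsk (35.8), with only Lamp1 and Ctss apart. On control diet Ctsd (571) and Ctsb (504) led, followed by Lamp1 (355), Ctsz (112), Ctsl (77.0), Ctss (51.2), Lipa (17.9) and Ctsk (6.47), where Ctsd overlapped with Ctsb, Ctsl with Ctss and Ctss with Lipa. Ctss stood next above Lamp1 on HFCD, within 1 SD, and below it and apart on the other diets. In heart Ctsd and Lamp1 were the highest on each diet, at 164 and 173 CPM per kb in HFCD+FMD, 182 and 167 in HFCD and 185 and 140 in control, and Ctsk was the lowest.

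The genes most like each member across the 13 adipose libraries were found by the root mean square difference of centred log2 CPM over 12810 genes. For Ctsk they were Slc25a13 (0.22), Myo1f (0.24) and Cd300a (0.26), against a spread of 1.42 for Ctsk itself. For Ctss they were Cd84 (0.21), Cd200r1 (0.22) and Arl11 (0.25), against 1.43. For Lipa they were Apobec1 (0.21) and the lysosomal genes Pld3 (0.22) and Gla (0.25), against 0.98, and for Ctsz Cln8 (0.12), Cstb (0.13) and Psap (0.14), against 0.52. Ctsl had Abhd12 (0.16), Ctsb had Smpdl3a (0.15), Ctsd had Stxbp2 (0.20) and Lamp1 had Noc2l (0.08) as the nearest gene. In the 14 heart libraries the nearest genes were others: C5ar2 for Ctss (0.17), Lhfpl2 for Ctsk (0.19) and Rab7, a small GTPase of late endosomes, for Lipa (0.09). These are descriptions over libraries that share depth, cell composition and diet.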

How the data were processed

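RNA libraries of adipose tissue (13) and heart (14) were used. The labels list 34 libraries, and the other 7 were not analysed here. Per the labels' protocols, RNA was extracted with RNeasy columns and libraries were made with the KAPA RNA Hyper+RiboErase kit. The submitters' processing notes name STAR 2.5.3, mm10, R 3.5.3, edgeR and limma, and do not give the counting program. The unnormalized gene counts deposited by the authors, whole numbers, were the input of all tests. The authors also deposited log2 CPM. From the authors' heart log2 values a further gene term had been removed, common to the libraries of each of 3 sets, whose meaning the labels do not state. In adipose tissue there was 1 set. All per-sample columns were used.

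Counts were fitted in R 4.3.3 with edgeR 4.0.16, each tissue on its own with all 3 diets in 1 model, TMM scaling and filterByExpr on diet, which left 15112 of 15145 adipose and 13230 of 13238 heart genes. The heart model held the library set as a factor, and the joint model, over 12606 genes, held tissue by diet without it. The quasi-likelihood F-test (robust, two-sided) was adjusted by Benjamini-Hochberg over all genes, with a threshold of 0.05, and the steps were tested on simulated data. Intervals are 1.96 SE on either side. CPM per kb used the union of exons in GENCODE M21 (GRCm38). Alternatives used RLE scaling, DESeq2 1.42.0, limma voom (limma 3.58.1), the deposited log2 values, other filters, age, other sets of libraries and leaving out each library. Replicate numbers follow accession order and only name a library. The counting is not stated to use strand, so reads of antisense partners could not be told apart.

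The members and all gene lists were chosen with earlier results of these data known. Genes named beyond the members are the up to 4 of each lysosome list with the smallest p in a comparison of which 1 is not reported here, the 3 nearest by likeness, and genes of the marker lists. The fallen lysosomal genes and the examples of marker genes were chosen after their values were seen.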

Additional observations from a re-analysis of the deposited data

Results flagged for a closer look

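Of 40 groups of 4 to 6 libraries tested, 1 library stood far from the others of its diet in 3. Chance flags about 1 in 20 groups. Ctsl in adipose HFCD replicate 2 was 1180 CPM, against 944 CPM in the next of 4 libraries. In heart, HFCD replicate 5 stood apart for Ctsl, at 209 CPM against 115 CPM in the next of 5, and for Ctss, at 33.2 CPM against 14.997 CPM.

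The HFCD response differed between the tissues, by the interaction term of edgeR's joint fit, for 4 genes. The log2 fold change of HFCD against control was larger in adipose tissue than in heart by 3.30 for Ctsk, 2.96 for Ctss, 1.55 for Lipa and 1.20 for Ctsz. Per 100 CPM of macrophage markers, Ctss held 7.27 to 10.5 CPM in heart HFCD+FMD, 7.33 to 9.82 CPM in heart HFCD and 7.13 to 10.1 CPM in heart control, where the 3 diets overlapped.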

How the results depend on the processing

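No paired analysis was possible because the labels give no replicate numbers that groups share. The count of members called stayed at 0 under every alternative that was run for adipose HFCD+FMD against HFCD, heart HFCD against control and the tissue difference for HFCD+FMD against HFCD. Leaving out 1 library gave 2 to 5 members in adipose HFCD against control, 0 to 4 in adipose HFCD+FMD against control, 0 to 1 in heart HFCD+FMD against HFCD and 0 to 1 in heart HFCD+FMD against control. In adipose HFCD+FMD against control, total-count scaling gave 6 members, DESeq2 gave 4 (Ctsz and Lipa added), and limma voom and the fit of only the compared diets gave 1 each. In heart HFCD+FMD against HFCD, the deposited log2 values gave 2 members (Ctsl and Ctss), among 1328 genes called, against 14 as reported. The fit of only the compared diets rests there on HFCD replicate 5. It is the only HFCD library in a set with HFCD+FMD, so calls of that fit carry no weight. The fit without HFCD+FMD replicate 1 rests on the same library, and the fit without HFCD replicate 5 rests on HFCD+FMD replicate 1. Against control the deposited values gave 1 (Ctsl), among 1193 genes called, and their test takes no account of the removed set terms. For the tissue difference for HFCD, total-count scaling gave 7, limma voom and the fit without the 4 heart libraries over 50% mitochondrial gave 5 each, and leaving out 1 library gave 3 to 5. In adipose HFCD against control, total-count scaling gave 7 and DESeq2 6. The causes were not tested.

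Over the alternatives other than leaving out 1 library, all genes called numbered 25 to 302 in adipose HFCD+FMD against HFCD (31 as reported), 1834 to 7246 in adipose HFCD+FMD against control (2978) and 3807 to 6877 in adipose HFCD against control (4532). In heart they numbered 0 to 1328 for HFCD+FMD against HFCD (14), 0 to 1193 for HFCD+FMD against control (3) and 0 to 61 for HFCD against control (0). For the tissue difference for HFCD they numbered 2091 to 6289 (2778). Leaving out 1 library gave 5 to 80, 663 to 3500, 2348 to 4854, 0 to 368, 0 to 217 and 0 to 0 in the same order.

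Over all alternative fits, 94 values of members changed sign. Total-count scaling moved the median of all genes to 0.44 in adipose HFCD against control, 0.47 in adipose HFCD+FMD against control, -0.39 in heart HFCD against control, 0.27 in heart HFCD+FMD against HFCD, -0.12 in heart HFCD+FMD against control and 0.95 in the tissue difference for HFCD, so its sign changes include a shift common to all genes. The 1 sign change that passed the threshold, Lamp1 in the tissue difference, is of that kind. They are log2 values. With RLE scaling the value was -0.038 for Ctsd in the tissue difference for HFCD. With age as a covariate values were -0.013 for Ctsb in adipose HFCD+FMD against control, and 0.13 for Ctsz in heart HFCD+FMD against HFCD. The same choice gave 0.025 for Ctsb in heart HFCD+FMD against control. With the deposited log2 values the value was 0.027 for Ctsk in heart HFCD against control. With limma voom values were -0.0018 for Ctsb in adipose HFCD+FMD against control, and -0.00072 for Ctsd in the tissue difference for HFCD. With no set factor values were 0.17 for Ctsb, 0.090 for Lipa and 0.052 for Lamp1 in heart HFCD+FMD against HFCD, and 0.28 for Ctsb in heart HFCD+FMD against control. The same choice gave 0.027 for Ctsl in heart HFCD against control. With set A alone the value was -0.18 for Ctss in heart HFCD against control. With set B alone values were 0.087 for Ctsb, 0.12 for Ctsd and 0.12 for Ctsz in heart HFCD+FMD against control. With set C alone the value was -0.29 for Ctsk in heart HFCD+FMD against HFCD. With only the compared diets in the fit values were -0.30 for Ctsk in heart HFCD+FMD against HFCD, and 0.085 for Ctsb, 0.12 for Ctsd and 0.12 for Ctsz in heart HFCD+FMD against control. The same choice gave -0.18 for Ctss in heart HFCD against control. With total-count scaling values were 0.22 for Ctsd in adipose HFCD+FMD against control, and 0.42 for Ctsd in adipose HFCD against control. The same choice gave 0.16 for Ctsb, 0.010 for Ctsd, 0.19 for Ctsz, 0.094 for Lipa and 0.21 for Lamp1 in heart HFCD+FMD against HFCD, and -0.020 for Lamp1 in heart HFCD+FMD against control. The same choice gave -0.34 for Ctsb, -0.34 for Ctss, -0.024 for Lipa and -0.23 for Lamp1 in heart HFCD against control, and 0.91 for Lamp1 in the tissue difference for HFCD. With the 4 heart libraries with over 50% mitochondrial counts left out values were 0.16 for Ctsb, 0.30 for Ctsd, 0.16 for Ctss, 0.49 for Ctsz and 0.011 for Lamp1 in heart HFCD+FMD against HFCD, and 0.086 for Ctsb, 0.12 for Ctsd and 0.12 for Ctsz in heart HFCD+FMD against control. The same choice gave -0.074 for Ctsb and -0.25 for Ctss in heart HFCD against control, and 0.11 for Lamp1 in the tissue difference for HFCD. Leaving out each library in turn also changed signs. In adipose HFCD+FMD against HFCD the range was -0.15 to 0.053 for Lamp1. In adipose HFCD+FMD against control the range was -0.061 to 0.13 for Ctsb. In adipose HFCD against control the range was -0.14 to 0.12 for Ctsd. In heart HFCD+FMD against HFCD ranges were -0.20 to 0.085 for Ctsb, -0.62 to 0.36 for Ctsd, -0.30 to 0.95 for Ctsk, -1.17 to 0.094 for Ctss, -0.43 to 0.50 for Ctsz and -0.098 to 0.0093 for Lamp1. In heart HFCD+FMD against control ranges were -0.19 to 0.086 for Ctsb, -0.85 to 0.12 for Ctsd, -0.53 to 0.70 for Ctsk and -0.80 to 0.12 for Ctsz. In heart HFCD against control ranges were -0.0044 to 0.16 for Ctsb, -0.24 to 0.12 for Ctsd, -0.25 to 0.26 for Ctsk, -0.24 to 0.058 for Ctsl and -0.18 to 0.27 for Ctss. In the tissue difference for HFCD ranges were -0.13 to 0.16 for Ctsd and -0.17 to 0.044 for Lamp1. The lowest count behind a member's value was 60 in adipose tissue and 41 in heart, both for Ctsk.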
